A study of Homo sapiens with 60 samples.

Results

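Transcript levels of 8 genes of fatty acid oxidation, ketone metabolism and lipid storage were followed in HepG2 cells, a liver line derived from a human hepatocellular carcinoma. The genes were PPARA, CPT1A, ACADM, BDH1, FABP1, PLIN2, ANGPTL4 and PDK4. They were chosen by name, with earlier results of these data known, and found among the 60675 gene IDs of the count table by matching ID to symbol. Of the 8, 7 had enough counts for a test and PDK4 did not. All groups were HepG2 cultures harvested after 24 h. They comprised wortmannin at 10 µM, an inhibitor of phosphoinositide 3-kinases that served as positive control, water extracts of 6 medicinal herbs at 3 doses each, and a DMSO vehicle. Polygalae Radix was given at 18, 90 and 450 µg/mL. The extracts of Aucklandiae Radix, Schisandrae Fructus, Zizyphi Semen, Longan Arillus and Liriopis seu Ophiopogonis Tuber were given at 20, 100 and 500 µg/mL. These are called the low, medium and high dose. The sample labels give the vehicle as 0.1% DMSO, whereas the design text of the series gives a higher percentage, so its level is uncertain. Each of the 20 groups had 3 libraries, 60 in all.

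PPARA is a nuclear receptor that is activated by fatty acids and, bound to DNA with the retinoid X receptor, switches on genes of fatty acid breakdown in the fasting liver. Its targets carry fatty acids into mitochondria, shorten them by beta oxidation and turn the product into ketone bodies, which the liver exports as fuel. Other targets bind fatty acids in the cytosol, coat lipid droplets, or restrain the use of glucose and of circulating triglyceride. Several of these genes are also known to answer to FOXO factors, which are active when insulin signalling is low, or to hypoxia.

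Promoter stretches of CPT1A, BDH1, PLIN2 and FABP1 are shown because the levels of these genes differed between extracts of the same code set. They come from the RefSeq promoter table (GRCh38.p14), run 5′ to 3′ on the gene's strand, and cover the part of the 250 bases before a RefSeq start that lies outside annotated exons. For CPT1A, PLIN2, FABP1 and the first BDH1 promoter that start lies inside the longer GENCODE gene span given with the gene's values. Capitals mark matches, on either strand, to AGGTCA, the hexamer that nuclear receptors bind, or to ACGTG, the core of the hypoxia response element.
CPT1A, chr11:68844411-68844527, minus strand: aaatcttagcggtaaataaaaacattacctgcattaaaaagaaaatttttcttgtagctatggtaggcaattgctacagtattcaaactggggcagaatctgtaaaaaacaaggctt
BDH1, first listed promoter, chr3:197556049-197556218, minus strand: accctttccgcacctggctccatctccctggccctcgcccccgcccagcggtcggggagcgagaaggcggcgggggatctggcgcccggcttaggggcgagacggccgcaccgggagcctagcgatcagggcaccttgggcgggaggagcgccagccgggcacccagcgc
BDH1, second listed promoter, chr3:197573344-197573593, minus strand: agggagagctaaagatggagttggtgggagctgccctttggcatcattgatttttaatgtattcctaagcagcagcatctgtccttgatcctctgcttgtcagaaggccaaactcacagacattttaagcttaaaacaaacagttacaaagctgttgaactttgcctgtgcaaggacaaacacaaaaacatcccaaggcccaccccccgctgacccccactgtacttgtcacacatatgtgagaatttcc
PLIN2, chr9:19127577-19127742, minus strand: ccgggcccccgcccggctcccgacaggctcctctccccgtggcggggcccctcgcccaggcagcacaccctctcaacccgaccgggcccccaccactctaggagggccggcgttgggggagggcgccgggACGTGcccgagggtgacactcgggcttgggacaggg
FABP1, chr2:88128117-88128312, minus strand: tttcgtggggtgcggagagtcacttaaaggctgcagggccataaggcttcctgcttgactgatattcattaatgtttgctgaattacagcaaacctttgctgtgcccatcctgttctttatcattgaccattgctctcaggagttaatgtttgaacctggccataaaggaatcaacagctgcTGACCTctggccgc
In the full window of 250 bases, FABP1 held 1 match to AGGTCA, PLIN2 held 3 to ACGTG, of which 2 overlap each other as a palindrome, and 1 to GCGTG, the second hypoxia core. ANGPTL4 held 1 match to ACGTG. PPARA, BDH1 and ACADM held 1 match each to GCGTG, for PPARA and BDH1 in 1 of their 2 listed promoters. CPT1A and PDK4 held no match to any motif searched. None of the 8 genes held GTAAACA, the forkhead motif, or DR1, the direct repeat of AGGTCA with 1 base between that PPARA binds with its partner. Of 35116 promoters searched in the same way on both strands, AGGTCA stood in 12.1%, ACGTG in 18.5%, GCGTG in 32.2%, GTAAACA in 2.98% and DR1 in 0.0171%. A match is a run of letters and was not tested as a binding site.

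Each library held between 20.21 and 36.41 M counts. Values are CPM, that is, counts brought to 1 M per library after library scaling, and a gene was called where the edgeR quasi-likelihood test gave a Benjamini-Hochberg adjusted p under 0.05 over all 16517 tested genes. The 10 hepatocyte markers were all expressed and summed to between 38300 and 54010 CPM in the group means. Of 6 immune markers, PTPRC and CD3E had no count in any library and MS4A1 at most 0.0411 CPM, while CD14 (1.19 to 2.99 CPM), CD68 (32.2 to 61.6 CPM) and LYZ (870 to 1650 CPM) were present, so the list summed to between 942.6 and 1685 CPM in the group means. The sample codes fall in 5 sets whose meaning is not stated, and the vehicle and wortmannin have a set each. A difference from the vehicle therefore cannot be told apart from a difference between sets, whereas the doses of an extract share a set. The labels give a DMSO level for the vehicle alone, so a difference in solvent cannot be told apart from it either. All comparisons with the vehicle also share its 3 libraries. In bulk libraries, less RNA in every cell and fewer cells with the RNA cannot be told apart.

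Wortmannin and high-dose Aucklandiae moved most of the 7 tested genes. With wortmannin 6 were called, 5 higher and 1 lower, beside 32.6% of all tested genes. With high-dose Aucklandiae all 7 tested were called, 5 higher and 2 lower, beside 26.1% of all genes. DESeq2 called 6 there, and leaving out 1 library gave 5 to 7. For wortmannin, leaving out 1 library gave 5 to 6. High-dose Schisandrae gave 3 calls (15.7% of all genes), Polygalae 2 (20.1%), Zizyphi 2 (4.42%), Longan 2 (1.76%) and Liriopis 0 (0.0484%), and the members called with those extracts were higher than in the vehicle. Without vehicle replicate 1 the shares of all genes were 13% for Polygalae, 1.14% for Zizyphi, 0.233% for Longan and 0.00596% for Liriopis. They also moved by over 1.5 times without any Zizyphi library (2.03 to 2.7%), without any Longan library (0.537 to 0.763%) or vehicle replicate 2 (0.876%) for Longan, and without any other of the 6 libraries for Liriopis (0 to 0.0238%). For Liriopis DESeq2 likewise called 0, and edgeR's unadjusted p was under 0.05 for 4 of 7. The median log2 fold change of the 7 genes was 0.55 with wortmannin and 0.59 with high-dose Aucklandiae, where the median of all genes was 0.0081 and 0.0003. Because the members were chosen with earlier results known, these shares and medians of all genes are a scale and not a test of the set.

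**Figure D1:**
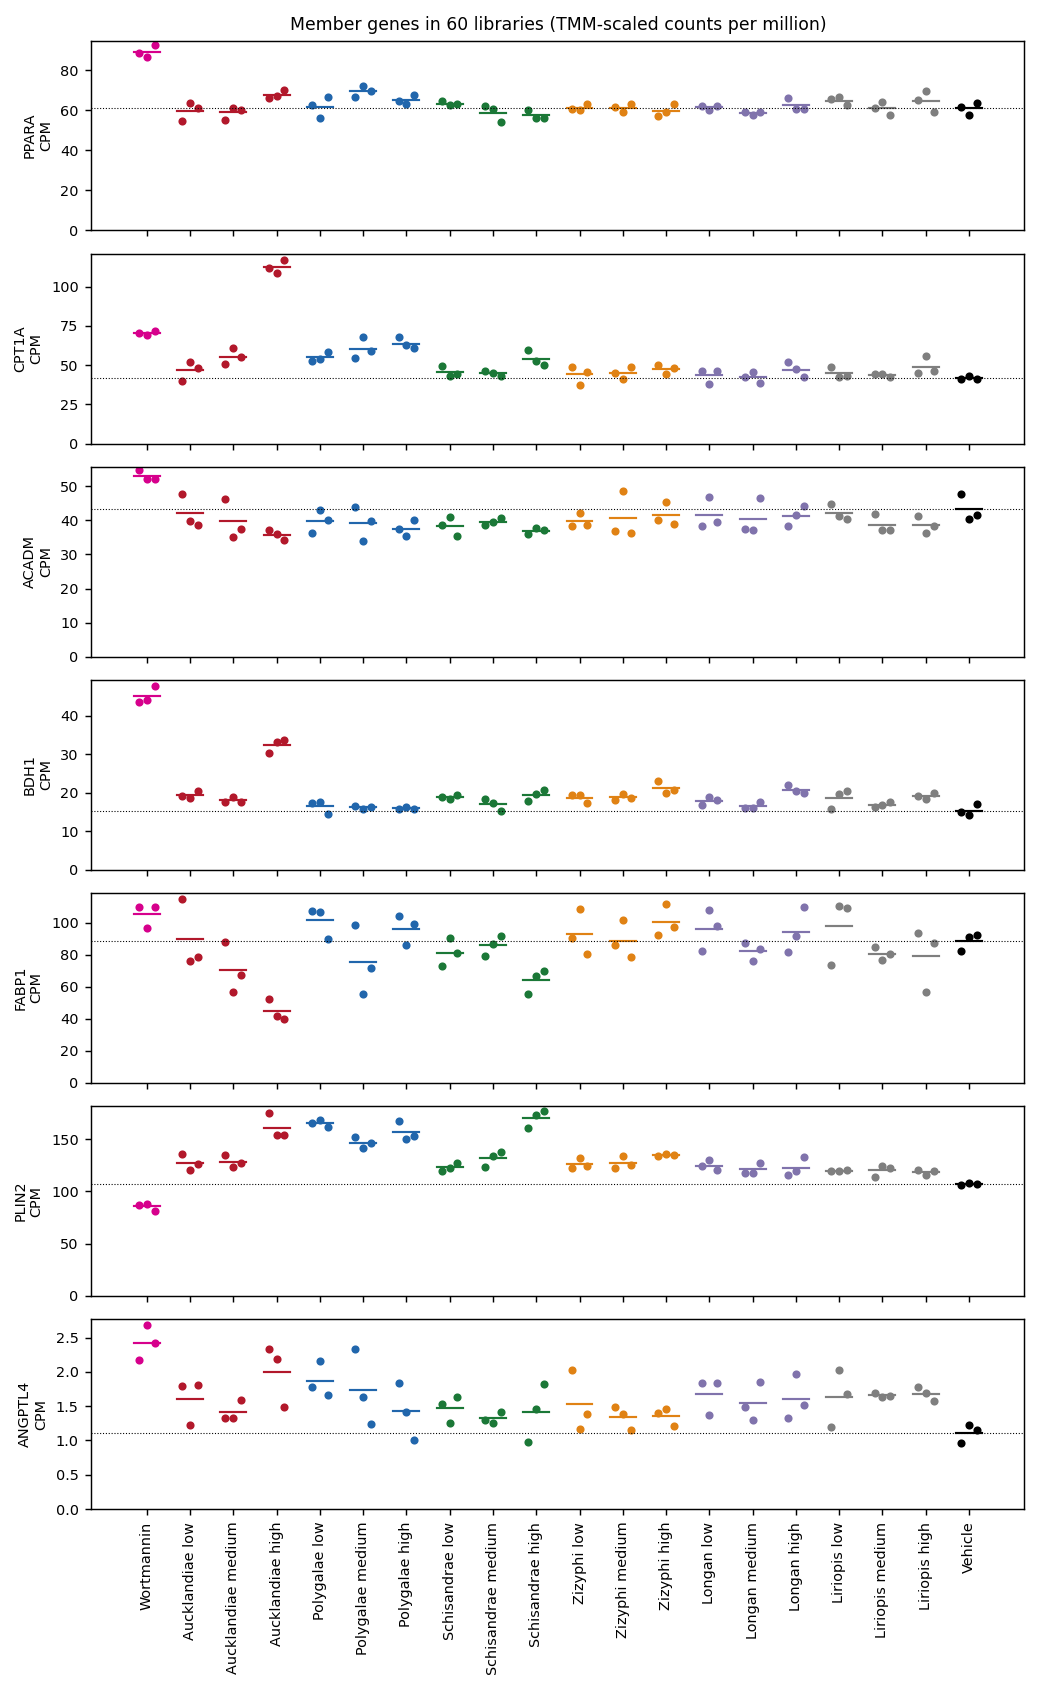
CPM of the 7 tested genes in every library (points) with the group mean (bar), in wortmannin, the 18 extract groups by dose and, at the right, the vehicle, whose mean is the dotted line. CPT1A and BDH1 stand out with wortmannin and high-dose Aucklandiae, FABP1 is lowest with high-dose Aucklandiae, and PLIN2 lies above the vehicle in every extract library.

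**Figure D2:**
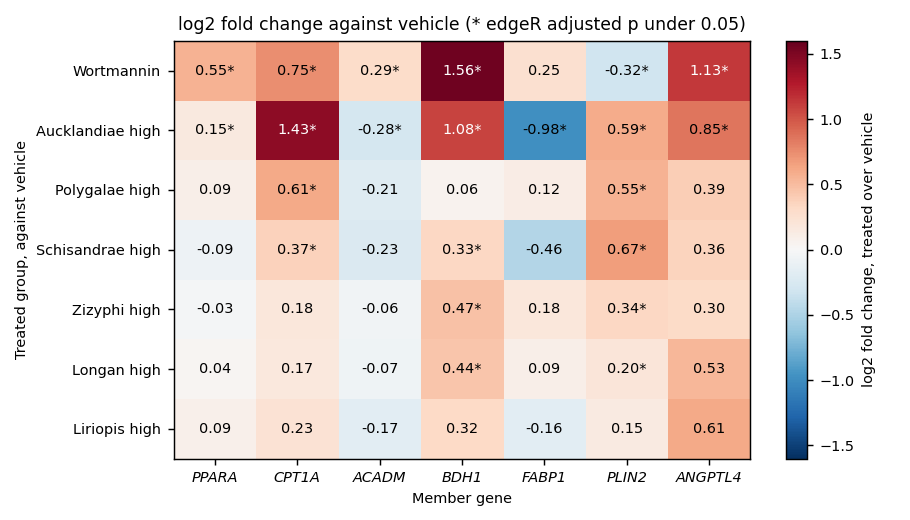
log2 fold change of the 7 genes (columns) with wortmannin and the high dose of each extract (rows) over the vehicle. Asterisks mark an edgeR adjusted p under 0.05. BDH1 with wortmannin (1.56) and CPT1A with high-dose Aucklandiae (1.43) are the furthest above 0, and FABP1 with high-dose Aucklandiae (-0.98) the furthest below.

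PPARA (ENSG00000186951, chromosome 22, 46150521 to 46243756, plus strand, GRCh38), the receptor itself, rose with wortmannin and changed little with the extracts. It was at 88.3, 86.4 and 92.8 CPM with wortmannin, against 61.7, 57.5 and 63.5 CPM in the vehicle. The groups did not overlap, and the log2 fold change was 0.55 ± 0.06 (SE; edgeR adjusted p = 1.95e-10). In the 18 extract groups the means ran from 57.4 CPM with high-dose Schisandrae to 69.5 CPM with medium-dose Polygalae. Small rises were called with high-dose Aucklandiae (67.8 ± 2.26 against 60.9 ± 3.06 CPM, SD, n = 3 each; log2 fold change 0.15 ± 0.06, edgeR adjusted p = 0.0465) and medium-dose Polygalae (69.5 ± 2.7 against 60.9 ± 3.06 CPM; 0.19 ± 0.06, edgeR adjusted p = 0.0269). The Aucklandiae call ended without any 1 of its own libraries (0.13 to 0.17) or without vehicle replicate 1 (0.17) or 2 (0.11). It also ended with the replicate number as a block (edgeR adjusted p = 0.0509), RLE scaling (0.0561), no filter (0.162) or the compared groups alone (0.0518). The same held without the 4 libraries of lowest GC slope (edgeR adjusted p = 0.0996) and with DESeq2 (DESeq2 adjusted p = 0.0532). The Polygalae call ended without its replicate 2 (0.16) or 3 (0.19) or without vehicle replicate 1 (0.21) or 2 (0.15). It also ended with the compared groups alone (edgeR adjusted p = 0.194), no filter (0.05) or without the 4 libraries of lowest GC slope (0.0659). When groups are ranked by mean, 18 of 19 neighbours overlap, and only wortmannin stands clear of the group next to it.

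CPT1A (ENSG00000110090, chromosome 11, 68754620 to 68844410, minus strand), which attaches fatty acids to carnitine at the outer mitochondrial membrane and so sets the rate of their entry, was highest with Aucklandiae. At the high dose it was at 112, 109 and 117 CPM, against 41.3, 42.9 and 41.3 CPM in the vehicle, a log2 fold change of 1.43 ± 0.1 (edgeR adjusted p = 1.68e-16). The 3 libraries lay above every other library of the study. With wortmannin it was at 70.2, 69.1 and 71.6 CPM, above all vehicle libraries (0.75 ± 0.1, edgeR adjusted p = 2.44e-08). Polygalae raised it at all 3 doses, with means of 55.0, 60.5 and 63.7 CPM at the low, medium and high dose against 41.8 CPM in the vehicle. The log2 fold changes were 0.39, 0.53 and 0.61, each with a standard error of 0.1 (edgeR adjusted p = 0.00335, 0.000138 and 5.27e-06). High-dose Schisandrae was at 54.2 ± 4.7 CPM (0.37 ± 0.1, edgeR adjusted p = 0.00494). This call was lost without its replicate 1 (0.30). Medium-dose Aucklandiae was at 55.4 ± 5.04 CPM (0.41 ± 0.1, edgeR adjusted p = 0.00806). This call was lost without its replicate 2 (0.34). All 19 treated groups had a mean above the vehicle, and in 10 of them every library lay above every vehicle library. The vehicle's rank at the bottom rests on a set and a DMSO label of its own. It cannot be told apart from a difference between sets or in solvent.

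ACADM (ENSG00000117054, chromosome 1, 75724347 to 75787575, plus strand), the medium-chain acyl-CoA dehydrogenase that opens a round of beta oxidation, was higher with wortmannin and lower with high-dose Aucklandiae. With wortmannin it was at 54.7, 52.1 and 52.2 CPM, against 47.9, 40.5 and 41.5 CPM in the vehicle (log2 fold change 0.29 ± 0.1, edgeR adjusted p = 0.023). With high-dose Aucklandiae it was at 37.2, 35.9 and 34.3 CPM, below all vehicle libraries (-0.28 ± 0.1, edgeR adjusted p = 0.0409). Both calls were close to the threshold. The wortmannin call ended without vehicle replicate 2 (0.24) or 3 (0.26) or wortmannin replicate 1 (0.27) or 2 (0.29), and the Aucklandiae call without any 1 of its own libraries (-0.30, -0.28 and -0.25) or vehicle replicate 1 (-0.19). The means of all 18 extract groups, 35.8 to 42.2 CPM, lay below the vehicle's 43.3 ± 4.03 CPM, and 1 of them passed the test. ACADM shares part of its annotated span with RABGGTB on the same strand and with DLSTP1 on the opposite one, and reads there could belong to either gene.

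BDH1 (ENSG00000161267, chromosome 3, 197509783 to 197573323, minus strand), which interconverts the ketone bodies acetoacetate and 3-hydroxybutyrate, had the widest rise with wortmannin. It was at 43.7, 44.1 and 47.6 CPM with wortmannin, against 14.9, 14.2 and 17.0 CPM in the vehicle, 2.94-fold higher (log2 fold change 1.56 ± 0.08, edgeR adjusted p = 6.78e-21). High-dose Aucklandiae followed at 30.4, 33.1 and 33.7 CPM, above all vehicle libraries (1.08 ± 0.08, edgeR adjusted p = 2.6e-15). Smaller rises were called with high-dose Zizyphi (21.3 ± 1.65 CPM, 0.47 ± 0.08, edgeR adjusted p = 0.00025), high-dose Longan (20.8 ± 1.19 CPM, 0.44 ± 0.08, 0.00167, and 0.104 with the compared groups fitted alone) and high-dose Schisandrae (19.3 ± 1.42 CPM, 0.33 ± 0.08, 0.00268). At the low dose the calls were Aucklandiae (0.34 ± 0.08, edgeR adjusted p = 0.0105) and Zizyphi (0.28 ± 0.08, edgeR adjusted p = 0.0481). The low-dose Aucklandiae call ended without its replicate 3 (0.30) or vehicle replicate 1 (0.32) or 2 (0.29), and the low-dose Zizyphi call without its replicate 1 (0.26) or 2 (0.25) or vehicle replicate 1 (0.26) or 2 (0.23). Both also ended with the compared groups fitted alone (edgeR adjusted p = 0.152 and 0.231). The low-dose Zizyphi call ended without the 4 libraries of lowest GC slope as well (edgeR adjusted p = 0.147). BDH1 did not follow CPT1A with Polygalae. At that extract's high dose it was at 16.0 ± 0.26 CPM against 15.4 ± 1.43 CPM in the vehicle (0.06 ± 0.08, edgeR adjusted p = 0.661). Every treated group again had a mean above the vehicle, and in 11 of 19 the libraries did not overlap with it.

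FABP1 (ENSG00000163586, chromosome 2, 88122982 to 88128116, minus strand), the abundant fatty acid binding protein of liver cytosol, fell with high-dose Aucklandiae. It was at 52.6, 41.7 and 40.0 CPM there, against 82.4, 91.2 and 92.2 CPM in the vehicle (log2 fold change -0.98 ± 0.18, edgeR adjusted p = 2.63e-05). No library of the 2 groups overlapped. With high-dose Schisandrae it was at 55.5, 66.9 and 70.2 CPM, also below all vehicle libraries, but the test was not passed (-0.46 ± 0.18, edgeR adjusted p = 0.0637). It was passed when the compared groups were fitted alone (edgeR adjusted p = 0.00208) and with no filter (4.26e-10). With wortmannin it was at 110, 96.5 and 110 CPM (0.25 ± 0.17, edgeR adjusted p = 0.282), above all vehicle libraries. This was likewise called when the compared groups were fitted alone (edgeR adjusted p = 0.00585) and with no filter (0.00281). FABP1 was the noisiest of the better expressed members, with a median coefficient of variation of 12.6% within groups. Low-dose Aucklandiae, for example, spanned 75.9 to 115 CPM.

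PLIN2 (ENSG00000147872, chromosome 9, 19108375 to 19149290, minus strand), the main lipid droplet coat protein of hepatocytes, was higher with extracts and lower with wortmannin. Wortmannin libraries were at 86.9, 88.3 and 81.5 CPM, against 105.8, 108 and 107 CPM in the vehicle (log2 fold change -0.32 ± 0.06, edgeR adjusted p = 6.51e-06). High-dose Schisandrae was the highest group at 161, 173 and 177 CPM (0.67 ± 0.05, edgeR adjusted p = 1.13e-13). Polygalae was above the vehicle at each dose, with means of 165, 147 and 157 CPM at the low, medium and high dose (0.63, 0.46 and 0.55, edgeR adjusted p = 7.69e-12, 3.85e-08 and 5.85e-11). High-dose Aucklandiae was at 175, 154 and 154 CPM (0.59 ± 0.05, edgeR adjusted p = 3.75e-12) and high-dose Zizyphi at 134, 136 and 135 CPM (0.34 ± 0.05, edgeR adjusted p = 6.98e-05). In all, PLIN2 rose in 13 of 19 comparisons with the vehicle and fell in 1. All libraries of all 18 extract groups lay above all 3 vehicle libraries, Liriopis included, whose means were 120, 120.3 and 118 CPM at the low, medium and high dose with no call. The vehicle libraries stand apart from every extract library here, and a difference between code sets or in solvent cannot be told apart from it. The weakest of the 13 calls were high-dose Longan (0.20, edgeR adjusted p = 0.042), low-dose Longan (0.22, 0.0431), medium-dose Zizyphi (0.25, 0.0192) and low-dose Zizyphi (0.24, 0.0144), each of which ended without vehicle replicate 1 (0.19, 0.21, 0.25 and 0.23 in the same order) or without a library of its own. Those were replicates 2 or 3 for high-dose Longan (0.22 and 0.13), any of the 3 for low-dose Longan (0.19 to 0.25), replicates 2 or 3 for medium-dose Zizyphi (0.21 and 0.26) and replicates 1 or 2 for low-dose Zizyphi (0.26 and 0.20). Both Longan calls were also lost without vehicle replicate 2 (0.21 and 0.23 for the high and low dose) or 3 (0.20 and 0.22). The calls of low- and medium-dose Aucklandiae were lost when the compared groups were fitted alone (0.25 and 0.26). The Longan and Zizyphi calls named as weakest were lost there too (edgeR adjusted p = 0.149 to 0.302). They were also lost without the 4 libraries of lowest GC slope (edgeR adjusted p = 0.0866 to 0.314).

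ANGPTL4 (ENSG00000167772, chromosome 19, 8363289 to 8374373, plus strand), a secreted inhibitor of lipoprotein lipase, was scarce, with 22 to 76 counts per library. With wortmannin it was at 2.18, 2.68 and 2.42 CPM, against 0.959, 1.22 and 1.15 CPM in the vehicle (log2 fold change 1.13 ± 0.23, edgeR adjusted p = 0.000133). High-dose Aucklandiae was at 2.34, 2.19 and 1.49 CPM (0.85 ± 0.24, edgeR adjusted p = 0.00503) and low-dose Polygalae at 1.78, 2.17 and 1.66 CPM (0.76 ± 0.24, edgeR adjusted p = 0.0208). Each of these groups lay above all vehicle libraries. The Polygalae call ended without its replicate 2 (0.63) or without vehicle replicate 1 (0.65). The other 16 treated groups had means above the vehicle without a call. ANGPTL4 overlaps the antisense gene RAB11B-AS1, and the strand setting of the counting is not given in the sources used here, so reads of the pair may be mixed.

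PDK4 (ENSG00000004799, chromosome 7, 95583499 to 95596491, minus strand), a kinase that switches off pyruvate dehydrogenase and a classic PPARA target, was at the limit of detection. It had 67 counts in all 60 libraries together, 0 in 24 of them and 5 at most. A limit of 3 counts corresponds to 0.0801 to 0.144 CPM in these libraries and covers counting error only. The highest library was at 0.214 CPM, and changes of PDK4 below that level were not detectable at this depth. Wortmannin libraries held 0.0908, 0.0851 and 0 CPM, against 0, 0.0471 and 0.0479 CPM in the vehicle.

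Per kilobase of annotated exon, and averaged over all libraries, the order of levels was FABP1 (34.8 CPM per kb), PLIN2 (25.7), ACADM (8.47), CPT1A (8.05), PPARA (4.79), BDH1 (2.21), ANGPTL4 (0.642) and PDK4 (0.00979). FABP1 and PLIN2 had the highest group means per kb in each of the 20 groups, but PLIN2 was above FABP1 in 2 of 20 groups, high-dose Aucklandiae (31.6 against 18.1 CPM per kb) and high-dose Schisandrae (33.5 against 26.0). CPT1A was above ACADM in 6, which were the 3 Polygalae doses, medium- and high-dose Aucklandiae (17.1 against 7.49 at the high dose) and high-dose Schisandrae. Exon lengths are those of the whole annotation and may differ from the transcripts these cells use.

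High against low dose of the same extract compares libraries of 1 code set and leaves the vehicle out. Over the 6 extracts 6 of 42 tests of a member were called, 5 higher and 1 lower, beside 4.86% of all tests. They came from Aucklandiae, where 14.9% of all genes were called, and Schisandrae (9.99%). With Aucklandiae, CPT1A averaged 112.5 ± 4.13 CPM at the high dose and 46.7 ± 6.22 CPM at the low dose (SD, n = 3 each; log2 fold change 1.27 ± 0.1, edgeR adjusted p = 9.33e-15). BDH1 averaged 32.4 ± 1.76 CPM at the high dose and 19.4 ± 0.92 CPM at the low dose (0.74 ± 0.08, edgeR adjusted p = 1.9e-10). FABP1 averaged 44.8 ± 6.85 CPM at the high dose and 89.9 ± 21.6 CPM at the low dose (-1.01 ± 0.18, edgeR adjusted p = 2.61e-05). PLIN2 differed by 0.34 ± 0.05 (edgeR adjusted p = 4.87e-06) and PPARA by 0.19 ± 0.06 (edgeR adjusted p = 0.022), the last a call that ended without high-dose replicate 3 (0.16) or low-dose replicate 1 (0.12). With Schisandrae, PLIN2 averaged 170.2 ± 8.28 CPM at the high dose and 123 ± 3.72 CPM at the low dose (0.47 ± 0.05, edgeR adjusted p = 4.07e-09). Polygalae gave no call, beside 3.93% of all genes, so its 0 calls are near the background. CPT1A differed by 0.21 ± 0.09 (edgeR adjusted p = 0.25), and all its high-dose libraries lay above all its low-dose ones. PLIN2 differed by -0.07 ± 0.05 (edgeR adjusted p = 0.572). Liriopis, Longan and Zizyphi gave no call either, where 0%, 0.00605% and 0.351% of all genes were called, so their 0 calls are at the background. Leaving out 1 library gave shares of 2.23 to 3.63% for Polygalae, 0 to 0.00597% for Longan and 0.131 to 0.37% for Zizyphi. DESeq2 called 0 members in these 4 extracts, and edgeR's unadjusted p was under 0.05 for 1 member with Polygalae, Longan and Zizyphi and for 0 with Liriopis. Against the vehicle, the 6 medium doses gave 7 calls in 42 tests (3.49% of all tests) and the 6 low doses 8 in 42 (3.81%), all higher. The medium-dose calls came from Polygalae, where 11.7% of all genes were called, Aucklandiae (5.52%), Schisandrae (2.98%) and Zizyphi (0.702%). The low-dose calls came from Polygalae (15.6%), Aucklandiae (4.45%), Zizyphi (2.09%) and Longan (0.581%). PLIN2 was called in each of these medium- and low-dose groups, against the same vehicle libraries. The other medium-dose calls were PPARA and CPT1A with Polygalae and CPT1A with Aucklandiae. The other low-dose calls were CPT1A and ANGPTL4 with Polygalae and BDH1 with Aucklandiae and Zizyphi. Leaving out vehicle replicate 1 brought the low-dose count of members to 3, and leaving out vehicle replicate 2 to 5. The shares of all genes moved too. Without vehicle replicate 1 they were 5.86% for medium-dose Polygalae, 2.86% for Aucklandiae, 0.728% for Schisandrae and 0.00596% for Zizyphi, and at the low dose 7.07% for Polygalae, 0.62% for Aucklandiae, 0.143% for Zizyphi and 0% for Longan. Without 1 of the other libraries compared, the shares ran from 5.18 to 17.7%, 1.8 to 6.99%, 0.65 to 3.11% and 0.0417 to 0.763% in the same order at the medium dose, and from 7.17 to 15%, 1.31 to 4.51%, 0.149 to 1.66% and 0.0835 to 0.668% at the low dose.

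**Figure D3:**
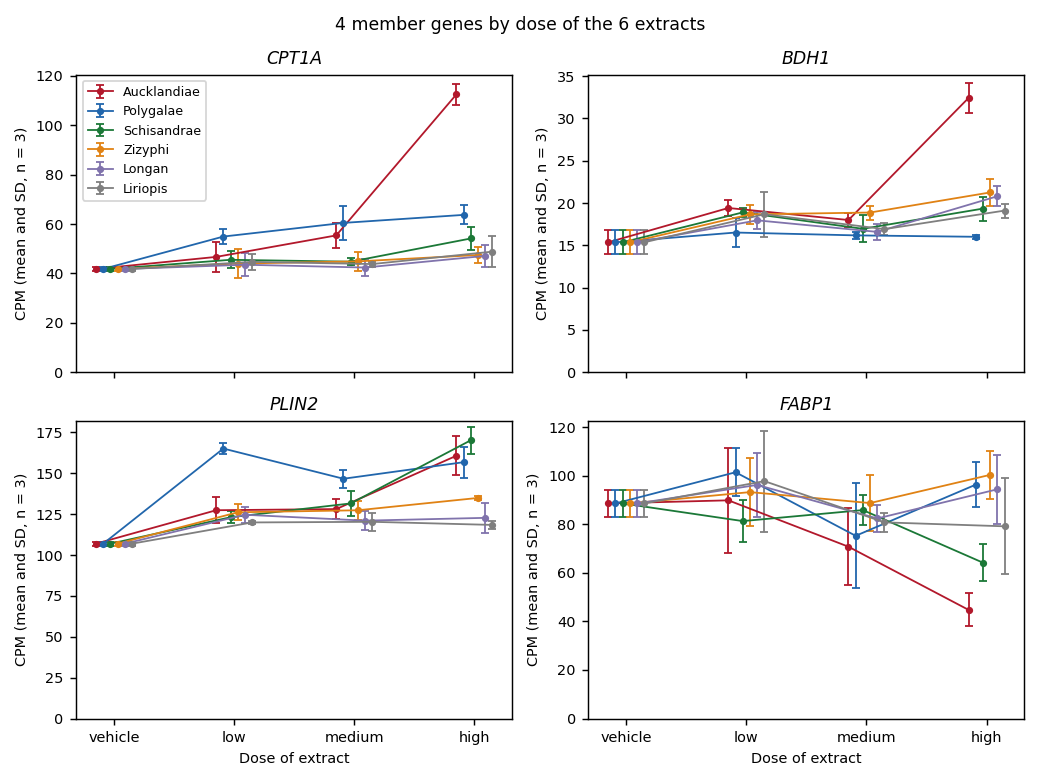
Mean CPM with SD (n = 3) of CPT1A, BDH1, PLIN2 and FABP1 in the vehicle and at the low, medium and high dose of each extract, one line per extract. CPT1A and BDH1 with Aucklandiae leave the other lines at the high dose, PLIN2 with Polygalae is near its top already at the low dose, and FABP1 drops with high-dose Aucklandiae.

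Extracts that share a code set were compared with each other at the high dose, and 4 of 21 tests of a member were called (9.18% of all tests), in pairs where 16.6% of all genes (Polygalae against Aucklandiae) and 10.9% (Schisandrae against Liriopis) were called. Polygalae at 450 µg/mL and Aucklandiae at 500 µg/mL differ in dose. CPT1A was at 63.7 ± 3.81 CPM with Polygalae and 112.5 ± 4.13 CPM with Aucklandiae (log2 fold change -0.82 ± 0.09, edgeR adjusted p = 2.01e-09). BDH1 was at 16.0 ± 0.26 CPM with Polygalae and 32.4 ± 1.76 CPM with Aucklandiae (-1.02 ± 0.08, edgeR adjusted p = 1.99e-14). FABP1 was at 96.4 ± 9.22 CPM with Polygalae and 44.8 ± 6.85 CPM with Aucklandiae (1.11 ± 0.18, edgeR adjusted p = 4.68e-06). PLIN2 was at 157 ± 9.36 CPM with Polygalae and 161 ± 11.9 CPM with Aucklandiae, with no call (-0.04 ± 0.05, edgeR adjusted p = 0.739). At 500 µg/mL each, PLIN2 was at 170.2 ± 8.28 CPM with Schisandrae and 118 ± 2.45 CPM with Liriopis (0.52 ± 0.05, edgeR adjusted p = 1.72e-10). Zizyphi against Longan gave 0 calls by edgeR and by DESeq2, with 1 member at an unadjusted p under 0.05, where edgeR called 0.0424% of all genes.

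The other genes of the pathway were followed in 8 lists of receptors, fatty acid activation and carnitine shuttle, mitochondrial and peroxisomal oxidation, ketone bodies, lipid droplets, pyruvate dehydrogenase kinases with lipase inhibitors, and further PPARA targets, 98 genes in all with 86 tested. With wortmannin 43 rose and 5 fell, beside 16.4% and 16.2% of all genes, and the median log2 fold change of the 86 genes was 0.23. With 1 library left out there were 39 to 48 calls in place of 48, beside 25.5 to 29.6% of all genes. With the members counted in their lists, mitochondrial beta oxidation had 10 rises of 17 tested and no fall, peroxisomal and omega oxidation 8 rises and 1 fall of 12, and ketone metabolism 3 rises of 10. Receptors and coactivators had 6 rises of 10, the carnitine shuttle list 9 rises and 1 fall of 15, lipid droplet genes 5 rises and 3 falls of 13, the kinase and lipase inhibitor list 2 rises and 1 fall of 8, and further PPARA targets 5 rises of 8. CREB3L3, a liver transcription factor that works with PPARA in fasting, was at 35.0 ± 0.73 against 17.2 ± 0.63 CPM (1.03 ± 0.1, edgeR adjusted p = 5.17e-11). PLIN5, a droplet protein of oxidative cells, was at 1.73 ± 0.43 against 1.03 ± 0.15 CPM (0.74 ± 0.26, edgeR adjusted p = 0.0271). This call was lost without wortmannin replicate 2 (0.55) or 3 (0.71) or vehicle replicate 2 (0.76) or 3 (0.62). FABP5, a fatty acid binding protein, fell by 0.53, HILPDA, a droplet-bound lipase inhibitor, by 0.42 and PDK3, another pyruvate dehydrogenase kinase, by 0.35 on the log2 scale (edgeR adjusted p = 0.000663, 0.00629 and 0.00619). The HILPDA call ended without wortmannin replicate 1 (-0.28), and the PDK3 call without wortmannin replicate 3 (-0.28) or vehicle replicate 1 (-0.30).

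High-dose Aucklandiae had 32 rises and 11 falls among the 86 genes, beside 13.6% and 12.5% of all genes (median 0.14). With 1 library left out there were 30 to 36 calls in place of 43, beside 18.9 to 23.5% of all genes. Again with the members counted in, further PPARA targets had 6 rises of 8, mitochondrial beta oxidation 8 rises and 3 falls of 17, peroxisomal and omega oxidation 5 rises and 1 fall of 12, and ketone metabolism 4 rises of 10. The carnitine shuttle list had 6 rises and 4 falls of 15, receptors and lipid droplet genes 3 rises and 2 falls each, and the kinase and lipase inhibitor list 2 rises and 1 fall of 8. VNN1, a pantetheinase and PPARA target, was at 1.63 ± 0.07 against 0.681 ± 0.1 CPM (1.25 ± 0.19, edgeR adjusted p = 2.87e-06). CIDEC, which fuses lipid droplets, was at 6.89 ± 0.43 against 3.67 ± 0.48 CPM (0.91 ± 0.13, edgeR adjusted p = 1.57e-07), and ALAS1, the first enzyme of heme synthesis, at 70.2 ± 3.88 against 41.9 ± 0.99 CPM (0.74 ± 0.05, edgeR adjusted p = 1.07e-16). CPT2, the partner of CPT1A on the inner mitochondrial membrane, went the other way, at 18.8 ± 0.68 against 23.5 ± 0.71 CPM (-0.33 ± 0.07, edgeR adjusted p = 0.00014). PDK2 was at -0.38 ± 0.07 (edgeR adjusted p = 2.11e-05), and PNPLA2, the lipase that starts droplet breakdown, at -0.26 ± 0.1 (edgeR adjusted p = 0.0351). This call was lost without any 1 of the 6 libraries (-0.28 to -0.25).

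High-dose Schisandrae had more falls than rises, 17 against 11, beside 7.25% falling and 8.4% rising of all genes. VNN1 was at 1.18 ± 0.2, PDK1, a hypoxia-induced pyruvate dehydrogenase kinase, at 0.95 ± 0.08 and CIDEC at 0.71 ± 0.13 (edgeR adjusted p = 3.35e-05, 8.89e-13 and 4.28e-05). PLIN1, the droplet coat of fat cells, was at -1.25 ± 0.28 and UCP2, a mitochondrial carrier, at -0.64 ± 0.1 (edgeR adjusted p = 0.000965 and 1.47e-06). Levels were low for PLIN1 (0.449 against 1.10 CPM in the vehicle) and VNN1 (1.56 against 0.681 CPM). SLC25A34, a mitochondrial carrier, was also called lower, at 0.0148 against 0.164 CPM, levels too low for a fold change, and that call ended without any vehicle library or Schisandrae replicate 2 or 3 (edgeR adjusted p = 0.065 to 0.163). High-dose Polygalae had 12 rises and 9 falls (10.2% and 9.94% of all genes). ANGPTL8, a secreted protein of liver and fat, was at 12.8 ± 0.63 against 6.18 ± 0.33 CPM (1.06 ± 0.17, edgeR adjusted p = 4.03e-06), ACOT1, an acyl-CoA thioesterase, at 0.63 ± 0.12 (edgeR adjusted p = 0.000118) and PLIN4, a further perilipin, at 0.50 ± 0.16 (edgeR adjusted p = 0.0191). ACOT1 has the near-identical copy ACOT2, so its share of reads is uncertain, and the PLIN4 call ended without Polygalae replicate 1 (0.48) or 3 (0.49) or vehicle replicate 1 (0.38). PLIN1 fell by 1.10, FABP2, the intestinal fatty acid binding protein, by 0.75 and CIDEB, a droplet protein of hepatocytes, by 0.40 on the log2 scale (edgeR adjusted p = 0.00209, 0.0253 and 0.0094). PLIN1 (0.506 against 1.10 CPM in the vehicle) and FABP2 (0.764 against 1.275 CPM) were scarce. The FABP2 call ended without Polygalae replicate 1 (-0.58) or 2 (-0.78) or vehicle replicate 2 (-0.70) or 3 (-0.72).

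High-dose Zizyphi had 8 rises and 3 falls, beside 2.55% and 1.86% of all genes. PDK1 was at 0.46 ± 0.08 and ACADVL, the very-long-chain acyl-CoA dehydrogenase, at 0.35 ± 0.06 (edgeR adjusted p = 0.00045 and 4.47e-05). VNN1 (0.78), SLC16A6, a transporter of the monocarboxylate family (-0.35), and the acyl-CoA synthetase genes ACSL4 (-0.22) and ACSL3 (-0.17) were also called, with edgeR adjusted p-values of 0.0462, 0.00834, 0.0218 and 0.0212, and each of these calls ended without vehicle replicate 1 (0.87, -0.29, -0.16 and -0.13). The VNN1 call also ended without vehicle replicate 2 or 3 or Zizyphi replicate 2 or 3 (0.62 to 0.81), that of SLC16A6 without Zizyphi replicate 2 (-0.28), that of ACSL4 without Zizyphi replicate 1 or 3 (-0.22 and -0.21) and that of ACSL3 without Zizyphi replicate 1 (-0.13). In place of 11 calls there were 2 when vehicle replicate 1 was left out, 7 for vehicle replicate 2, and 6, 7 and 5 for Zizyphi replicates 1, 2 and 3. High-dose Longan gave a rise of ACADVL (0.24, edgeR adjusted p = 0.0155) and a fall of SLC16A6 (-0.30, edgeR adjusted p = 0.0383), beside 0.92% and 0.842% of all genes, and both calls ended without vehicle replicate 1 (0.19 and -0.24). The ACADVL call also ended without Longan replicate 1 or 2 (0.23 and 0.23), and that of SLC16A6 without any Longan library (-0.35 to -0.26) or vehicle replicate 3 (-0.31). The count of 2 was 0 without vehicle replicate 1 or Longan replicate 1 or 2, and 1 without vehicle replicate 3 or Longan replicate 3. High-dose Liriopis gave no call among the 86 genes by edgeR, 1 by DESeq2, and 12 at an edgeR unadjusted p under 0.05. Of all genes edgeR called 0.0484% there.

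**Figure D4:**
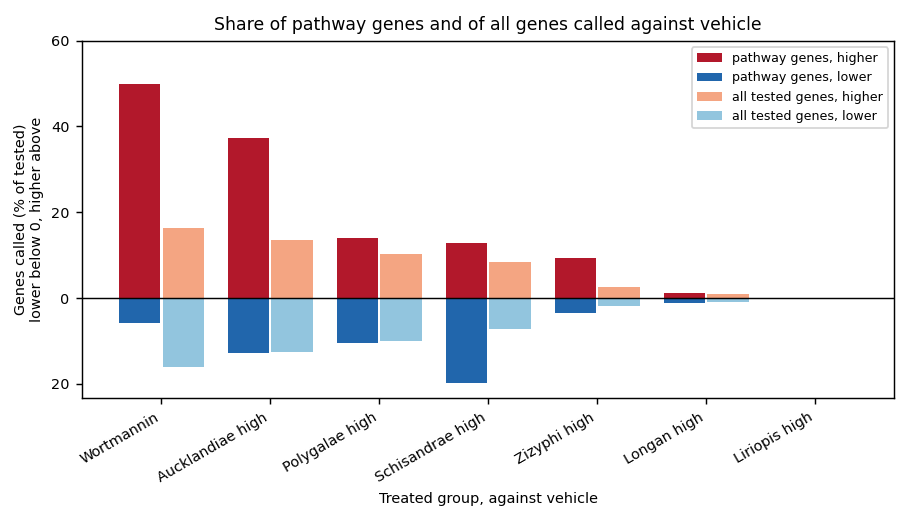
Share of the 86 tested pathway genes (dark bars) and of all 16517 tested genes (pale bars) called higher (above 0) or lower (below 0) against the vehicle, with wortmannin and the high dose of each extract. Wortmannin (43 higher, 5 lower) and Aucklandiae (32 and 11) lean upward, Schisandrae (11 and 17) downward.

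The pathway genes were also compared between doses. With Aucklandiae 19 of the 86 genes were higher and 7 lower at the high dose, beside 7.77% and 7.14% of all genes. With Schisandrae 9 were higher and 17 lower, beside 5.19% and 4.8%, and with Polygalae 0 were higher and 5 lower, beside 1.23% and 2.7%. Liriopis, Longan and Zizyphi gave 0 by edgeR, beside 0%, 0.00605% and 0.351% of all genes, so these 0 calls are at the background. DESeq2 called 0, 0 and 1 of the 86 genes in the same order, and edgeR's unadjusted p was under 0.05 for 5, 3 and 12.

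Since PLIN2 and ANGPTL4 are also known hypoxia targets and some members FOXO targets, 10 genes of each response outside lipid metabolism were read beside them. Hypoxia targets rose for 8 of 10 with high-dose Schisandrae, 7 with Aucklandiae, 6 with Polygalae and Zizyphi, 4 with wortmannin, 3 with Longan and 1 with Liriopis, and none fell. Of all genes, 8.4% rose with Schisandrae, 13.6% with Aucklandiae, 10.2% with Polygalae, 2.55% with Zizyphi, 16.4% with wortmannin, 0.92% with Longan and 0.0424% with Liriopis, and these shares stand beside both lists. FOXO targets rose for 7 of 10 with wortmannin and none fell. They rose for 4 and fell for 2 with Aucklandiae, rose for 3 and fell for 1 with Schisandrae, and rose for 4 with Polygalae, 3 with Zizyphi, 2 with Longan and 0 with Liriopis. Their part in the values of the 8 genes was not tested.

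Across the 20 group means, which share the count table and scaling, the members formed no single pattern. Log2 levels of PPARA and BDH1 went together (Pearson r = 0.76), as did PPARA and ANGPTL4 (0.74), while PLIN2 and ACADM ran opposite (-0.81) and CPT1A and FABP1 likewise (-0.59). Among 10997 genes with a group mean of at least 5 CPM, the patterns most like CPT1A over the 20 groups were those of GCKR (r = 0.96), IL6R (0.95) and SLC25A30 (0.95). For PPARA they were SLC1A2 (0.96), ACADSB (0.94) and SLC2A11 (0.92), and for BDH1 TNFSF10 (0.94), ARSD (0.94) and PC (0.94). PLIN2 was most like TNFRSF12A (0.95), EHD4 (0.94) and SLC6A8 (0.94), FABP1 most like BEX1 (0.91), ZFAND2B (0.90) and BEX3 (0.86), ACADM most like LINC00667 (0.90), ZDHHC11 (0.90) and ANKH (0.90), and ANGPTL4 most like TMEM185A (0.85), ZBTB22 (0.85) and GATD3 (0.85). These are descriptions of 20 means, in several of which a few treated groups set the range.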

How the data were processed

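One table of expected counts, the estimated and not always whole number of reads per gene, was deposited by the authors with a column per library. Per the labels' protocols, mRNA went into a directional library kit and was sequenced as 100 bp paired ends. Per the submitters' processing notes, STAR 2.7.3a, RSEM 1.3.3, FastQC 0.11.9 and Trim Galore 0.6.5 were used and the build was GRCh38 (hg38), with no role or order stated. Annotation release and strand setting: not given in the sources used here. IDs were matched to symbols and coordinates of GENCODE 29 (57055 of 60675).

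Expected counts were rounded, filtered with filterByExpr by group (16517 genes kept, the others holding 0.0532% of counts) and TMM-scaled. CPM was computed from the scaled library sizes. One quasi-likelihood model in edgeR 4.0.16 (with limma 3.58.1 under R 4.3.3) held a term per group and all 60 libraries. The 28 comparisons were tested 2-sided, with Benjamini-Hochberg adjustment over all tested genes and a threshold of 0.05. The procedure was tested on simulated data. Total counts (median 25.76 M per library) limit precision for scarce genes. The labels do not say whether replicates are separate cultures. The p-values set a difference against the spread among libraries of a group, estimated over all 60 libraries, and that spread may be technical.

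Alternatives were RLE scaling, no filter (35717 genes), the replicate number as a block, DESeq2 1.42.0, the compared groups alone, leaving out each library, and leaving out the 4 libraries with the lowest slope of expression on GC content (medium-dose Aucklandiae replicate 3, low-dose Schisandrae replicate 2, low-dose Liriopis replicate 1 and vehicle replicate 1). Deviations of same-numbered libraries correlated above 0.1 in all 3 pairs for high- against low-dose Schisandrae (r = 0.25, 0.21 and 0.21) and Zizyphi (0.30, 0.51 and 0.15), and in no other comparison. Members, lists and motifs were chosen with earlier results of these data known. Of the other pathway genes, those named are the 3 largest rises and 3 largest falls that passed in wortmannin or a high dose against the vehicle. A gene that this rule names with wortmannin is not reported here. For each member, the 3 genes with the highest Pearson correlation of mean log2 CPM over the 20 groups are named.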

Additional observations from a re-analysis of the deposited data

How the results depend on the processing

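Of 196 tests of a member, 47 were called, and 30 of these calls held in every alternative, 33 whichever library was left out and 32 in all other settings. No called direction was reversed. The median log2 fold change of all genes shifted by -0.0128 to 0.0101 between settings and by -0.0158 to 0.0127 when 1 library was left out. With the replicate number as a block, no other call of a member changed than that of PPARA with high-dose Aucklandiae (log2 fold change 0.15), and the pathway count with high-dose Longan was 4 in place of 2. All 3 same-numbered pairs correlated above 0.1 only in high- against low-dose Schisandrae and Zizyphi, where no member's call changed. Single pairs elsewhere ran from -0.38 (low-dose Zizyphi against the vehicle) to 0.55 (high- against low-dose Longan). Whether the numbers pair the samples was not tested. Without a filter, members called were 1 with high-dose Liriopis, 5 with Schisandrae and 1 with Longan, and pathway genes 2 with Liriopis and 5 with Longan. From the compared groups alone, members called were 5 with high-dose Schisandrae, 0 with Longan, 4 over the medium and 3 over the low doses, and pathway genes 0 with Longan and 2 with Zizyphi. Without the 4 libraries of lowest GC slope, members called were 1 with high-dose Longan, 4 over the medium and 4 over the low doses, and pathway genes 0 with Longan and 2 with Zizyphi. DESeq2 called 1 pathway gene with high-dose Liriopis and 6 with Longan. Leaving out 1 library gave 1 to 2 members with high-dose Longan, 3 to 9 over the low doses, and 0 to 2 pathway genes with Longan and 2 to 9 with Zizyphi. The cause of these shifts was not tested. PDK4 stayed without a call in the fit with no filter (smallest edgeR adjusted p = 0.754). Among the members, depth limits ANGPTL4 and PDK4 most.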
